A study of Bos taurus with 20 samples.

Results

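The angiomotin family consists of the scaffold proteins encoded by *AMOT*, *AMOTL1* and *AMOTL2*, described here together with *NF2*, which encodes merlin. The genes were chosen by the DKK1 differences of *AMOT* on these same arrays, at an unadjusted P. A probe set was included where the array annotation gave it the symbol of 1 of these genes and no other symbol. The rule found 4 probe sets, 1 per gene, among the 26773 on the array: 12909424 for *AMOT* on chromosome X, 12733332 for *AMOTL1* on chromosome 15, 12681779 for *AMOTL2* on chromosome 1 and 12744191 for *NF2* on chromosome 17 (chromosomes of the cattle assembly ARS-UCD2.0).

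Bovine embryos were produced in vitro with X-sorted semen (called female) or Y-sorted semen (called male), so their sex rests on the sorting, which is known to be incomplete. On Day 5 after insemination, embryos of each sex received recombinant human DKK1 at 100 ng/ml or its vehicle, buffered saline with bovine serum albumin, and after 24 h, on Day 6, morulae were harvested in pools of 20, compacted and non-compacted embryos alike. The groups, with 5 pools and 5 arrays each, were female DKK1, female control, male DKK1 and male control. RNA of each pool was amplified before it was hybridized to an Affymetrix Bovine Gene 1.0 ST array. Values are log2 intensities after robust multi-array averaging (RMA), so a difference of 1 is a doubling of intensity, and levels of different probe sets are not comparable. A lower value can come from fewer cells with a transcript or from less transcript per cell, and pools cannot tell these apart.

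DKK1 is a secreted antagonist of WNT signaling that binds the co-receptors LRP5 and LRP6. Angiomotins bind actin and junction proteins and can hold the transcriptional coactivator YAP outside the nucleus. Merlin brings LATS kinases, which phosphorylate YAP in the Hippo pathway, to the membrane. In the mouse embryo, inner cells keep Amot and Nf2 active at cell contacts, whereas in outer cells Amot is held at the apical domain and nuclear Yap with Tead4 turns on the trophectoderm gene Cdx2.

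All 11 morula markers examined were in the tested set, the 9842 probe sets with a mean log2 intensity of at least 5.5. None of the 12 cumulus and granulosa cell markers on the array was, and 10 of the 12 had a mean below 4.8. Sperm markers reached the tested set in 2 of 7 cases. The array labelled male control replicate 2 stood apart. Its *XIST*, the transcript of the inactive X chromosome, was 8.81, against 6.30 to 8.22 on the other male arrays and 8.42 to 10.03 on the female arrays. Its *DDX3Y*, a gene of the Y chromosome, was 4.82, against 6.29 to 8.36 on the other male arrays. Its median over the tested set was 7.06, against 7.24 to 7.40 on all other arrays. The median of its X-linked probe sets less that of its autosomal ones was 0.43, against -0.07 to 0.17 on the other male arrays and 0.48 to 0.67 on the female arrays. Its mean over the cumulus and granulosa cell markers was 3.95, against 3.54 to 3.80 on all other arrays. These markers were low in intensity (means 2.40 to 5.25). The median of this array over all probe sets was also the highest, 4.82 against 4.58 to 4.73. On the sex measures it thus lay with or next to the female arrays, and whether the pool held female embryos or was mislabelled was not tested. It was kept under its label, so values of male controls and of sex include it, and the main ones are also given without it.

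*AMOT*, the member that binds YAP and LATS kinases and is named for its first known partner, angiostatin, was lowest in DKK1-treated males. In male DKK1 morulae the log2 intensities were 6.08, 5.35, 6.84, 5.86 and 6.25 (mean 6.08 ± 0.54, SD, n = 5). In male control morulae they were 6.99, 7.48, 6.49, 7.57 and 7.11 (7.13 ± 0.43). All male DKK1 arrays lay below the mean of the male controls, and the groups overlapped only because replicate 3 of male DKK1 was above replicate 3 of male control. In female DKK1 morulae the values were 7.22, 6.08, 6.40, 7.40 and 6.99 (6.82 ± 0.56, n = 5). In female control morulae they were 6.44, 7.24, 5.90, 6.65 and 6.67 (6.58 ± 0.48). The female groups overlapped over most of their ranges.

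These values chose the family, so the differences of *AMOT* that involve DKK1 are a description without a test. DKK1 minus control was -1.05 in males (SE 0.303), a fold of 0.482, and 0.24 in females (SE 0.303). The interaction, or DKK1 difference in females less the one in males, was 1.29 (SE 0.429), and averaged over sex, DKK1 minus control was -0.41 (SE 0.215). By qPCR on separate pools of morulae, the authors reported lower *AMOT* with DKK1 in both sexes and no significant interaction. Of all tested probe sets, 0.345% had a difference in males as low as or lower than that of *AMOT*. This place follows from the choice of *AMOT* and is a description too. No probe set of the 9842 passed an adjusted P of 0.05 from limma for DKK1 averaged over sex, for DKK1 in females, for DKK1 in males or for the interaction (0% in each comparison), whereas 3.61%, 4.13%, 4.28% and 4.6% were under an unadjusted 0.05.

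The difference of *AMOT* in males did not rest on the male control array that stood apart. Without it the difference was -0.96 (SE 0.324), and the interaction was 1.20 (SE 0.446). When each array was left out in turn, the difference in males ranged between -1.24 and -0.87. As *AMOT* was chosen by this difference, these values are a description and add no evidence for it. The difference in females ranged between 0.07 (without female control replicate 3) and 0.42 (without female DKK1 replicate 2). On male control replicate 2, *AMOT* was 0.83 above its own mean over 20 arrays. The 1252 other probe sets with means within 0.25 of that of *AMOT* had a median deviation of -0.20 there. In order of level, *AMOT* was highest in male control, then female DKK1, female control and male DKK1. Neighbours in this order differed by 0.309, 0.238 and 0.505, none more than the SD within groups, 0.507. That SD was larger than the median of 0.433 over the 1253 tested probe sets of like mean, *AMOT* included.

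**Figure D1:**
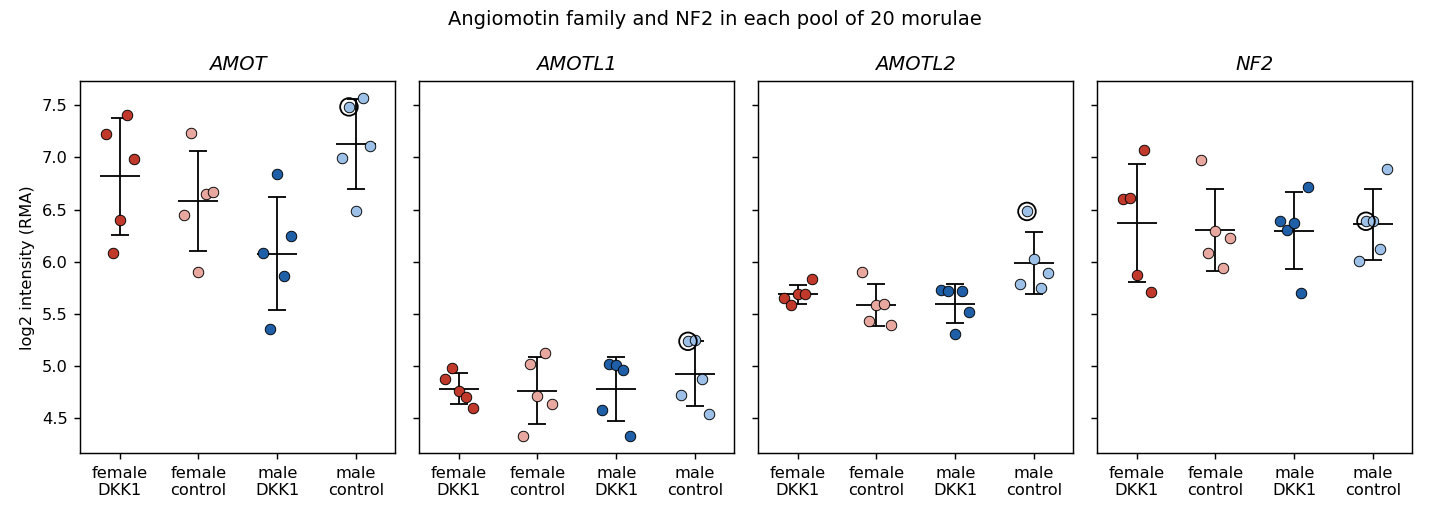
Log2 intensity (vertical axis) of *AMOT*, *AMOTL1*, *AMOTL2* and *NF2* on each array, for female DKK1, female control, male DKK1 and male control (horizontal axis). Points are pools of 20 morulae (mean and SD of 5 as bars, male control replicate 2 ringed), *AMOT* averaged 6.08 in male DKK1 and 7.13 in male control, and for *AMOTL2* every male DKK1 array was below every male control array.

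The effect of sex on *AMOT* had no part in the choice. *AMOT* averaged 6.70 ± 0.51 on the female arrays and 6.60 ± 0.72 on the male arrays (SD, n = 10 each). Female minus male was 0.10 (SE 0.215, adjusted P = 1.00, limma), in a comparison in which 0.102% of tested probe sets passed an adjusted P of 0.05. The sex difference was 0.74 among DKK1 embryos and -0.55 among controls, which restates the interaction and was not tested. Without male control replicate 2, female minus male was 0.14 (SE 0.223, adjusted P = 0.960), and with each array left out in turn it lay between 0.01 (without male DKK1 replicate 2) and 0.19 (without male DKK1 replicate 3).

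*AMOT* is X-linked, and X-linked probe sets were as a group higher in females. The median of female minus male was 0.44 over the other 231 X-linked tested probe sets and -0.01 over 7202 autosomal ones. Of the 231, 12.6% had a lower female minus male difference than *AMOT*. Set against the median of the other X-linked probe sets of the same array, *AMOT* was -1.15 ± 0.46 on female arrays and -0.80 ± 0.73 on male arrays (SD, n = 10 each). This difference of -0.35 was within the spread between arrays (two-sided permutation test, P = 0.212), and it was -0.25 without male control replicate 2 (P = 0.364, n = 10 and 9, permutation test). DKK1 and control arrays were pooled within each sex, so this spread includes the DKK1 differences of *AMOT*. For DKK1 minus control in males the X-linked median was -0.01, and 1.73% of the 231 had a lower value than *AMOT*. As *AMOT* was chosen by its DKK1 differences, this place is a description.

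**Figure D2:**
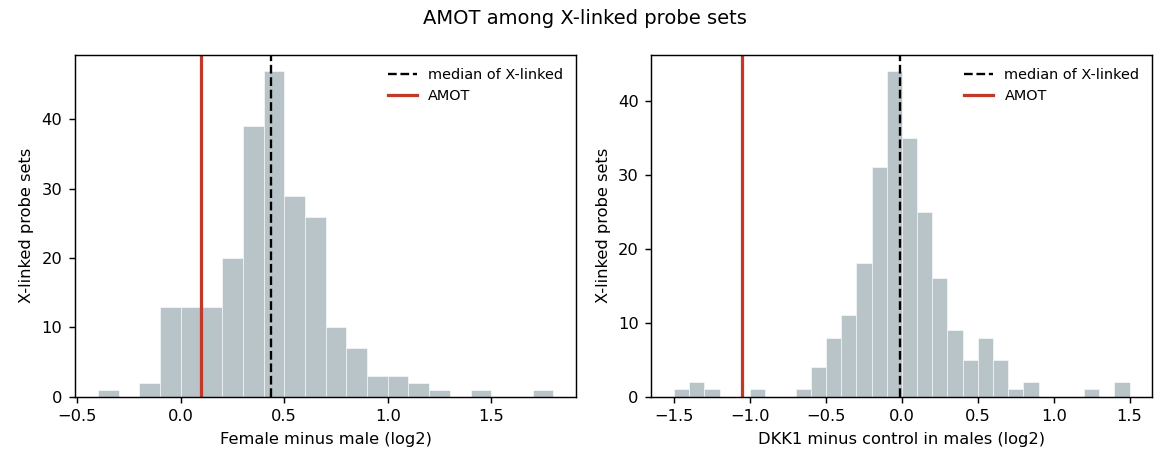
Number of X-linked tested probe sets other than *AMOT* (vertical axes, 231 in all) by female minus male difference (left) and by DKK1 minus control difference in males (right), both in log2 units (horizontal axes). Dashed lines mark the X-linked medians, 0.44 and -0.01, and solid lines mark *AMOT*, 0.10 and -1.05.

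*AMOTL1*, a paralog of *AMOT* that also binds YAP, was close to the medians of the arrays. Its mean of 4.81 over 20 arrays was below the tested set, so it was tested among the 12674 probe sets with a mean of at least 4.8. Its log2 intensities were 4.88, 4.98, 4.76, 4.70 and 4.60 in female DKK1 morulae and 4.33, 5.02, 4.71, 5.12 and 4.64 in female control morulae. They were 4.58, 5.02, 5.01, 4.96 and 4.33 in male DKK1 morulae and 4.73, 5.24, 5.25, 4.88 and 4.54 in male control morulae. Groups overlapped in both sexes. DKK1 minus control was 0.02 in females (SE 0.182, adjusted P = 0.999) and -0.15 in males (SE 0.182, adjusted P = 0.997, limma). In this larger set 0% of probe sets passed an adjusted P of 0.05 for any DKK1 comparison, and 0.071% passed for sex, for which female minus male of *AMOTL1* was -0.08 (SE 0.129, adjusted P = 1.00). The 95% interval of the difference in males was -0.53 to 0.23. Without male control replicate 2 that difference was -0.07 (SE 0.187), a change of over 1.5 times. On that array *AMOTL1* was 0.42 above its mean, and the 1186 other probe sets of like mean had a median deviation of 0.24.

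*AMOTL2*, the remaining paralog, which links cadherin junctions to actin and also binds YAP, had the second largest difference of the family in males. Its log2 intensities were 5.73, 5.72, 5.30, 5.72 and 5.52 in male DKK1 morulae (5.60 ± 0.19, SD, n = 5). They were 5.79, 6.48, 6.03, 5.74 and 5.90 in male control morulae (5.99 ± 0.30). Every male DKK1 array was below every male control array, by a margin at the closest point of 5.73 against 5.74. Such a separation with DKK1 lower was seen for 0.305% of tested probe sets (30 of 9842). In female DKK1 morulae the values were 5.65, 5.58, 5.69, 5.69 and 5.83 (5.69 ± 0.09). In female control morulae they were 5.90, 5.43, 5.59, 5.60 and 5.40 (5.58 ± 0.20). The female groups overlapped, through the control array at 5.90.

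The difference of *AMOTL2* between male DKK1 and male control was -0.39 (SE 0.145, 95% interval -0.69 to -0.09). It was under an unadjusted P of 0.05, as were 4.28% of tested probe sets, and did not pass adjustment (adjusted P = 0.986, limma). In females the difference was 0.10 (SE 0.145, adjusted P = 0.998), and the interaction was 0.49 (SE 0.205, adjusted P = 0.969). Part of the difference in males came from the array that stood apart, on which *AMOTL2* was 0.77 above its mean while 1727 probe sets of like mean had a median deviation of 0.01. Without this array the difference in males was -0.27 (SE 0.126, adjusted P = 0.999). The interaction was then 0.37, its lowest value with any single array left out. The SD within groups of *AMOTL2* was 0.207, and 5.65% of the 1593 tested probe sets of like mean had a smaller one. Male control was the highest group mean, 0.298 above female DKK1, and the other groups differed from their neighbours by 0.091 and 0.013, less than that SD. Female minus male was -0.16 (SE 0.103, adjusted P = 0.965).

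*NF2*, whose product merlin acts upstream of LATS kinases, varied between pools within each group and little between groups. Its log2 intensities were 6.60, 6.61, 5.87, 7.07 and 5.71 in female DKK1 morulae and 6.97, 6.09, 6.29, 5.94 and 6.22 in female control morulae. They were 6.39, 6.31, 6.38, 5.70 and 6.72 in male DKK1 morulae and 6.01, 6.39, 6.39, 6.12 and 6.89 in male control morulae. In each sex the control range lay mostly within the DKK1 range. DKK1 minus control was 0.07 in females (SE 0.260, adjusted P = 0.998) and -0.06 in males (SE 0.260, adjusted P = 0.999, limma). The 95% interval in males was -0.61 to 0.48. The means of all 4 groups were between 6.30 and 6.37, and female minus male was 0.01 (SE 0.184, adjusted P = 1.00).

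Side by side, DKK1 minus control in males was -1.05 for *AMOT*, -0.39 for *AMOTL2*, -0.15 for *AMOTL1* and -0.06 for *NF2*. In females the differences were 0.24, 0.10, 0.02 and 0.07 in the same order of genes. For the 3 genes other than *AMOT*, whose own values chose the family, the difference was above 0 in females and below 0 in males, a combination found for 24.4% of the tested probe sets and 24.8% of the larger set. The difference in females of *AMOTL1* and those in both sexes of *NF2* changed sign when some single arrays were left out. Only the difference in males and the interaction of *AMOTL2* had 95% intervals without 0 among the genes tested. In these comparisons 4.28% and 4.6% of all tested probe sets were under an unadjusted P of 0.05 (limma). No member passed an adjusted P of 0.05 in any comparison that was tested for it.

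**Figure D3:**
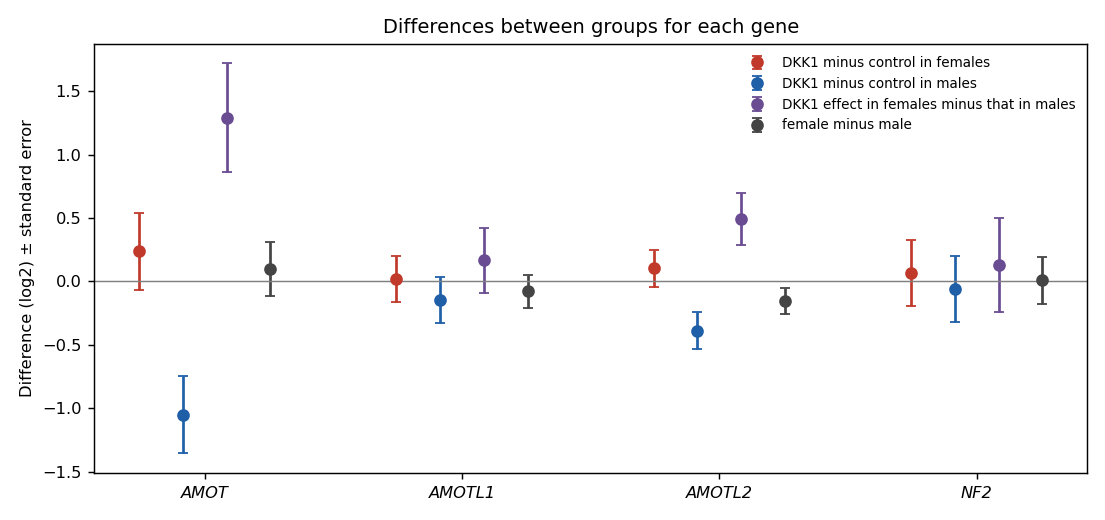
Differences in log2 intensity (vertical axis, points with standard errors from limma) for each gene (horizontal axis): DKK1 minus control in females, DKK1 minus control in males, the DKK1 x sex interaction (the first less the second), and female minus male. *AMOT* was -1.05 in males and 0.24 in females, *AMOTL2* was -0.39 and 0.10, and all differences of *NF2* lay between -0.06 and 0.13.

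Over the 20 arrays no pair of members passed an adjusted P of 0.05 for covariation. Of the 6 pairs, *AMOTL1* and *NF2* had the largest correlation, Pearson's r = -0.35 (P = 0.128, adjusted P = 0.713) and Spearman's rho = -0.31 (P = 0.180, adjusted P = 0.859, two-sided permutation tests). Without the 2 arrays farthest from the median of *AMOTL1*, r was -0.11, though leaving out extreme arrays also narrows the range of *AMOTL1*. With single arrays left out, r lay between -0.46 and -0.23, and with group means subtracted it was -0.38. *AMOT* and *AMOTL2*, both lowest relative to control in DKK1 males, had r = 0.23 (P = 0.347, adjusted P = 0.713) and rho = 0.17 (P = 0.479, adjusted P = 0.859, permutation tests). After the group means were subtracted, r between them was -0.21, and without male control replicate 2 the uncorrected r was -0.01. *AMOT* had r = 0.09 with *AMOTL1* and 0.12 with *NF2*. *AMOTL2* had r = 0.19 with *AMOTL1* and 0.09 with *NF2*, and for these pairs the adjusted permutation P was also 0.713. Within sexes, r of *AMOTL1* with *AMOTL2* was -0.59 over the 10 female arrays and 0.45 over the 10 male arrays, given here as a description.

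**Figure D4:**
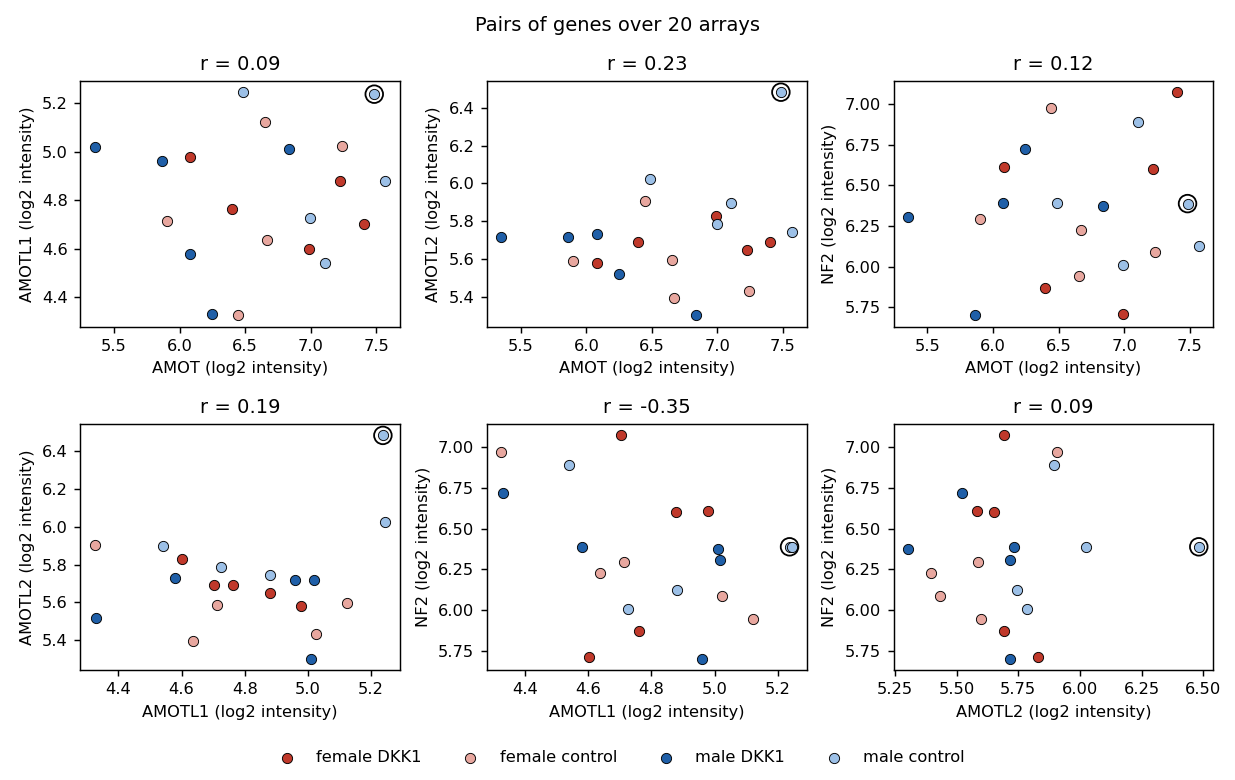
Log2 intensity of each pair of genes over 20 arrays, 1 pair per panel (both axes in log2 intensity), with colours for female DKK1, female control, male DKK1 and male control and a ring on male control replicate 2. Pearson's r lay between -0.35 for *AMOTL1* with *NF2* and 0.23 for *AMOT* with *AMOTL2*, and the ringed array was the highest for *AMOTL2*.

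The genes whose pattern over 20 arrays was most like that of *AMOT*, among 7558 tested probe sets with 1 gene symbol, were *ZNRF3* (r = 0.77), *GXYLT2* (0.75), *PALS1* (0.72), *VPS4A* (0.71) and *ZNF705A* (0.65). The median r over all compared was -0.02. After the group means were subtracted, r was 0.72, 0.76, 0.71, 0.73 and 0.69 in the same order, so the likeness was also present within groups. *ZNRF3* encodes a ubiquitin ligase that removes WNT receptors from the membrane, and *PALS1* encodes a scaffold of the Crumbs polarity complex, to which angiomotins bind through PATJ. *ZNRF3* averaged 5.40 ± 0.31 in male DKK1 and 5.93 ± 0.43 in male control morulae, and 5.69 ± 0.38 in female DKK1 and 5.67 ± 0.53 in female control morulae (SD, n = 5 each). *PALS1* averaged 8.06 ± 0.27 in male DKK1 and 8.39 ± 0.15 in male control morulae, and 8.14 ± 0.41 in female DKK1 and 8.24 ± 0.35 in female control morulae. In male DKK1 and male control morulae, *GXYLT2* averaged 8.70 and 8.97, *VPS4A* 6.35 and 6.65, and *ZNF705A* 7.80 and 8.09. In female DKK1 and female control morulae they averaged 8.96 and 8.85, 6.90 and 6.44, and 8.13 and 8.05, in the same order. These r values are the highest of many and are a description. The genes were picked by likeness to *AMOT* on the same arrays, so their group means are a description as well.

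For *AMOTL2* the nearest patterns were *LOC518139* (r = 0.80), *MCRIP1* (0.79) and *BCAM* (0.73). Without male control replicate 2 these values were 0.58, 0.58 and 0.45. For *NF2* the nearest were *ACO1* (0.75), the cytosolic aconitase that also binds iron-responsive RNA elements, *KAT8* (0.71), a histone H4 acetyltransferase, and *YARS2* (0.69), the mitochondrial tyrosyl-tRNA synthetase. Without that array they were 0.75, 0.78 and 0.69.

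Genes that work with the family were examined as 4 lists. Of the 23 Hippo kinases and transcription factors, 18 were tested, and none passed an adjusted or an unadjusted P of 0.05 (limma) in any of the 5 comparisons, with or without male control replicate 2. The median DKK1 minus control difference of this list was 0.12 in females, against 0.02 over all tested probe sets, and 0.06 in males, against 0.04. *YAP1*, the coactivator that angiomotins bind, was -0.02 in females (SE 0.140) and 0.02 in males (SE 0.140). *WWTR1*, which encodes the related coactivator TAZ, was 0.14 and -0.16 (SE 0.143 each). *LATS1*, the kinase downstream of merlin, was 0.09 in females and 0.43 in males (SE 0.306 each), within the spread between arrays. *LATS2*, with a mean of 5.34, was below the tested set.

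Of the 18 angiomotin partners and regulators, 16 were on the array under these symbols and 11 were tested. None passed an adjusted P of 0.05 in any comparison. At an unadjusted P under 0.05, *MAGI1*, a junction scaffold, and *ITCH*, a ubiquitin ligase of the NEDD4 family, were above control in DKK1 females, by 0.40 (SE 0.179) and 0.29 (SE 0.120, adjusted P = 0.998 for both), that is 2 of 11 where 4.13% of all tested probe sets were under it. *MAGI1* also had an interaction of 0.59 (SE 0.253, adjusted P = 0.969), the only one of 11 under the unadjusted threshold, against 4.6% of all tested probe sets. *LIN7C*, a polarity protein, was -0.54 in females relative to males (SE 0.152, adjusted P = 0.215), in a comparison in which 6.41% of tested probe sets were under an unadjusted 0.05. The median of the list was 0.06 in females and -0.0049 in males for DKK1 minus control. Without male control replicate 2 the median in males was -0.16, and 1 gene was under the unadjusted threshold there, as were 3.27% of all tested probe sets.

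Of the 13 partners of merlin and its relatives, 12 genes (13 probe sets) were tested, and none passed an adjusted P of 0.05. The only one under an unadjusted 0.05 was *MSN*, an X-linked gene that encodes the merlin relative moesin, at 0.45 in females relative to males (SE 0.128, adjusted P = 0.215). For sex, 6.41% of all tested probe sets were under an unadjusted 0.05. The median of female minus male was 0.44 over the 231 X-linked tested probe sets other than *AMOT*. Without male control replicate 2, 1 probe set of the 13 was under an unadjusted 0.05 for DKK1 and 2 for sex, against 4.04% and 8.15% of all tested probe sets. Of the 11 target genes of YAP and TEAD, 8 were tested, and none passed an adjusted or unadjusted P of 0.05 in any comparison. Their median DKK1 minus control difference in males was 0.21, against 0.04 over all tested probe sets, but it was 0.06 without male control replicate 2. *CDX2*, the trophectoderm gene, was 0.23 in females and -0.29 in males (SE 0.451 each, adjusted P = 0.998 and 0.987, limma).

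**Figure D5:**
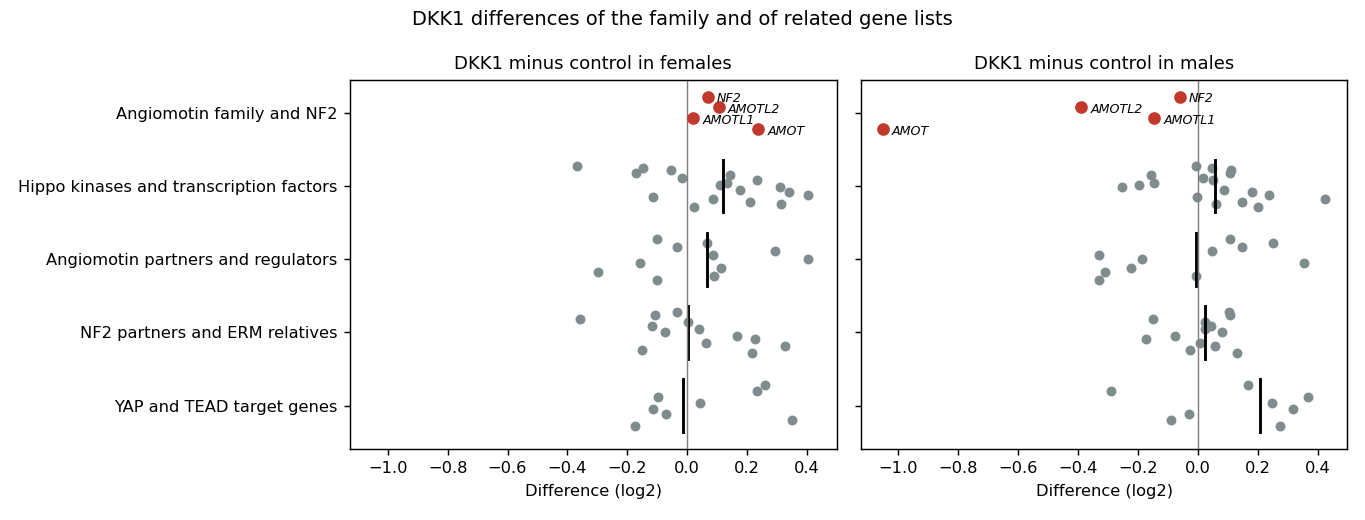
DKK1 minus control in log2 units (horizontal axes) in females (left) and males (right) for the 4 genes of the family (named points) and for the tested probe sets of 4 related lists (grey points, with the median as a vertical bar). *AMOT* at -1.05 lay below every gene of the lists in males, where the lowest listed gene was at -0.33. *AMOT* was chosen by its DKK1 differences, so its place is a description.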

How the data were processed

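RNA of 20 pools of bovine morulae was measured on 1 array per pool, and all arrays were used. The deposited values are log2 intensities, made by the authors in Affymetrix Expression Console with RMA (background correction, quantile normalization over arrays and 1 summary value per probe set). The versions are not given in the sources used here. Quantile normalization makes the arrays alike in distribution, so a change common to most transcripts is not seen. Array medians lay between 4.58 and 4.82. No further normalization was applied.

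The labels gave the sex and treatment of each pool. Gene symbols came from the platform annotation (18457 probe sets with 1 symbol, 688 with several, 7628 with none listed) and chromosomes from the gene table of ARS-UCD2.0. Probe sets with a mean of at least 5.5 were tested with limma 3.58.1 in R 4.3.3 (cell means of the 4 groups, moderated variances, no replicate term), and P was adjusted by the Benjamini-Hochberg method over all 9842. Each fertilization used sperm pooled from several bulls, and the sources used here do not tie pools of morulae to fertilizations, so P values measure only the spread between these pools. Correlations were tested with 100000 permutations. Permutations ran in SciPy 1.17.1 under Python 3.11.15, tables in pandas 2.3.3 and NumPy 2.4.6, plots in matplotlib 3.10.9. The number of arrays limits the precision.

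The genes named are the members, the 5 (*AMOT*) or 3 (other tested members) genes of highest Pearson's r with each, and examples of the lists. *PATJ*, *LATS2* and other listed genes below the tested set were not tested. Members and lists were chosen with earlier results of these data known. The settings varied were the replicate number as a block (fixed or random), an unmoderated model, an intensity trend with robust prior, array weights, other means as thresholds, other scalings, 1 probe set per symbol and each array left out.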

Additional observations from a re-analysis of the deposited data

Results flagged for a closer look

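Array and member values were examined in each group of 5 for a sample far from the others. Of 32 such sets of 5 values, 2 stood out, and chance alone gives about 1 in 20. Both belong to male control replicate 2. Its median over the tested set was 7.06, whereas the other male control arrays were at 7.32 or above. Its *DDX3Y* was 4.82, within the range of the female arrays (2.65 to 5.43). No value of *AMOT*, *AMOTL1*, *AMOTL2* or *NF2* stood out in this way in any group.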

How the results depend on the processing

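No difference of a member that was tested passed an adjusted P of 0.05 under any alternative, and the lowest adjusted P was 0.762. The differences of *AMOT* and *AMOTL2* kept their sign under every alternative, apart from the sex difference of *AMOT*, which was -0.35 relative to the X-linked median of its array. The DKK1 differences of *AMOT* chose the family, so for them this is a description. With a mean of at least 6.5, *AMOT* was the only member in the tested set, so that setting gave no value for the others. The small DKK1 difference of *NF2* was -0.026 with array weights, -0.037 with arrays centred on their medians, -0.035 with quantile normalization and -0.013 with cyclic loess, and its sex difference was -0.037 with array weights. With single arrays left out, the ranges that crossed 0 were -0.089 to 0.11 for *AMOTL1* in females, and for *NF2* -0.084 to 0.087 (DKK1), -0.11 to 0.24 (females), -0.17 to 0.088 (males), -0.044 to 0.30 (interaction) and -0.078 to 0.092 (sex). Correlations with single arrays left out lay between -0.037 and 0.21 (*AMOT* and *AMOTL1*), -0.0062 and 0.30 (*AMOT* and *AMOTL2*), -0.0081 and 0.18 (*AMOT* and *NF2*) and -0.11 and 0.30 (*AMOTL1* and *AMOTL2*). Male control replicate 2 gave the low end of the first, second and last of these. With group means subtracted, r was -0.038 for *AMOT* and *AMOTL1* and -0.21 for *AMOT* and *AMOTL2*. Same-numbered arrays had correlations between -0.18 and 0.14, and since not every one was over 0.1, the numbers were not taken as pairs. As a hint from the data that they may be, 12 of 20 arrays correlated best with an array of their own number, where 4 would do so from the number of candidates alone, and same-numbered arrays correlated more on average in 6 of 6 pairs of groups. With the replicate block, the *AMOT* difference in males was -1.05 (SE 0.320), r was -0.22 for *AMOT* and *AMOTL2* and -0.055 for *AMOTL1* and *AMOTL2*, and no call for a member changed.

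Probe sets at an unadjusted P under 0.05 numbered 355 for DKK1, 406 for DKK1 in females, 421 in males, 453 for the interaction and 631 for sex. With a mean of at least 6.5 they were 228 for DKK1 and 270 in females, and with no threshold 1062, 1096, 1080, 1123 and 1291, since fewer or more probe sets were tested. With no threshold, 1 probe set passed the adjusted P in females and 1 for the interaction. The count for sex at an adjusted P, 10, was 24 in the unmoderated model, 28 with an intensity trend, 43 with array weights, 5 with quantile normalization, 6 with cyclic loess, 4 with 1 probe set per symbol and 3 to 36 with single arrays left out, the highest without male control replicate 2. Higher and lower probe sets at the unadjusted P numbered 232 and 123 for DKK1 (in this order, 141 and 194 with centred arrays, 155 and 173 with quantile normalization, 184 and 163 with cyclic loess), 247 and 159 in females (224 and 212, 225 and 207, 243 and 197), 291 and 130 in males (194 and 217, 222 and 193, 236 and 180) and 195 and 258 for the interaction (247 and 238, 232 and 254, 243 and 255). The interaction had 287 higher and 214 lower with array weights. With no threshold the numbers were 436 and 626 for DKK1, 533 and 563 in females, 504 and 576 in males and 591 and 532 for the interaction. The cause was not tested. Cyclic loess and the comparison with the X-linked median were chosen after seeing the data.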
